A study of Mus musculus with 18 samples.

Results

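The genes described here are the mouse zinc finger genes whose symbol runs from Zfp900 to Zfp999. They were found by that pattern in the symbols of the deposited count table or of the GENCODE M21 annotation, matched by Ensembl identifier, which gave 64 genes of the 54232 in the table. The table itself carries the symbol for 40 of them, and the other 24 stand there under older names, such as LOC101056073 for Zfp990 and Gm13154 for Zfp985. Bulk RNA sequencing, with ribosomal RNA depleted, was done on whole lacrimal glands (LGs) from males, each library made from 1 LG of 1 mouse. The strains were BALB/cJ, the control (BALB/c here), and NOD.B10Sn-H2b/J (NOD.H-2b here), a model of Sjögren's syndrome which carries the NOD background with a major histocompatibility segment (H2b) taken from C57BL/10SnJ. Ages were 2 months (2M), 4 months (4M) and 6 months (6M), with 3 mice of a strain in each of the 6 groups and 18 mice in all. BALB/c is a different inbred strain and not the parent of NOD.H-2b, so disease and genetic background cannot be told apart in any comparison of the strains.

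Zinc finger proteins of this family bind DNA through a row of fingers, and many carry a KRAB domain that recruits the co-repressor Trim28. Trim28 in turn brings in the histone methyltransferase Setdb1, heterochromatin proteins and the NuRD deacetylase complex, which silence the bound site, and transposable elements are the best known targets. The family grows by tandem duplication, so that many members lie in clusters of near copies whose content is known to differ between inbred strains, and the targets of most single members are not established.

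The tissue label was checked against marker genes. Levels are in CPM, counts scaled to the TMM-normalized library size. All 8 lacrimal acinar markers had more than 10 counts in every mouse, led by the secretoglobin Scgb2b7 with a mean of 64600 CPM, and their summed level lay between 93500 and 152000 CPM. In BALB/c the libraries held 57094775, 60324594 and 63309172 counts at 2M, 59018657, 54255982 and 67138830 at 4M, and 103936830, 52244088 and 50032070 at 6M. In NOD.H-2b they held 56840654, 62057758 and 59280039 at 2M, 60135132, 62623939 and 49480781 at 4M, and 58993318, 51117182 and 50470457 at 6M. The depth was thus similar in all libraries except the deeper BALB/c 6M replicate 1. All 64 members together took between 0.0187% and 0.0356% of the counts of a mouse, so that single members often rest on few counts even at this depth.

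Of the 64 members, 37 had more than 10 counts in every mouse, 5 had at most 3 counts in every mouse, and 1 of these (Zfp935) had 0 throughout. Compared per kb of exon, the highest mean levels over all 18 mice belonged to Zfp970 (3.87 CPM per kb), Zfp946 (3.78), Zfp950 (3.71), Zfp958 (3.28) and Zfp938 (3.19). These means pool the strains, and the first place of Zfp970, the only one of the 5 called between the strains at any age, rests on its level in NOD.H-2b. Zfp990 ranked 34 of the 64 with 0.559 CPM per kb and Zfp985 ranked 44 with 0.102 CPM per kb. Most members are thus lowly transcribed in the LG, and Zfp950, the most abundant in CPM because of its exon length of 10615 bases, had a mean of 39.4 CPM.

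Near copies limit what a count means in this family. The share of a member's transcript windows of 75 bases (the read length) found in no other annotated gene ranged from 0% for Zfp969, Zfp967 and Zfp935 to 100%. It was 88.4% for Zfp990, 95.6% for Zfp985, 95.1% for Zfp982, 76.4% for Zfp979, 69.6% for Zfp970, 65.5% for Zfp992, 59.1% for Zfp984 and 24.1% for Zfp991. How reads with several matches and reads of either strand were counted is not given in the sources used here, so values of members with a low share are uncertain, as are those of the 12 members whose exons overlap another gene. The reads of both strains were aligned to GRCm38, which is the C57BL/6J genome, and genomes of BALB/c and NOD.H-2b were not used here. A copy that is absent, a copy whose sequence has diverged and a copy that is not transcribed therefore cannot be told apart where a strain has no counts.

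Which members are transcribed in only 1 of the strains was asked by counts alone, without a test. A member was called strain-restricted when each of the 9 mice of one strain had at most 3 counts and each of the 9 mice of the other had more than 10. This held for 2 members, Zfp990 and Zfp985, both detected in NOD.H-2b, out of 43 members above 10 counts in each NOD.H-2b mouse, against 0.349% of all 15479 such genes. No member was restricted to BALB/c among the 38 above 10 counts in each BALB/c mouse, against 0.13% of all 14564 such genes. Having any count was less selective, since 56 of the 64 members had at least 1 count in some mouse of both strains.

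Zfp990 (ENSMUSG00000078503, protein-coding) lies at chr4:145510759-145539188 on the plus strand of GRCm38. In BALB/c its counts were 0, 1 and 0 at 2M and 0 in all mice of 4M and 6M. In NOD.H-2b they were 86, 147 and 107 at 2M, 401, 253 and 143 at 4M, and 472, 278 and 339 at 6M. The strains did not overlap at any age, and the single count in BALB/c is within counting error of 0. The mean level of the NOD.H-2b mice was 1.78 ± 0.421 CPM at 2M, 4.28 ± 1.63 CPM at 4M and 5.66 ± 0.696 CPM at 6M (SD, n = 3). Set against a floor of 3 counts per library, the level in NOD.H-2b at 4M was at least 79.8-fold that of BALB/c. For 6M the bound was at least 102-fold. At 2M, where BALB/c had 1 count, the ratio was 295 with a 95% counting interval of 52.5 to 11700, and over all ages it was 2050 (368 to 81200). Such intervals and floors cover counting error only. The gene was called higher in NOD.H-2b at each age by edgeR's quasi-likelihood test (Benjamini-Hochberg adjusted p = 1.44e-06, 5.79e-05 and 5.81e-07). As Zfp990 was chosen with earlier results known, and passed the filter on low counts through its NOD.H-2b mice alone, these p values are no evidence beyond the counts.

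Zfp985 (ENSMUSG00000065999, protein-coding) lies in the same chromosomal region, at chr4:147553277-147585198 on the plus strand. Its counts in BALB/c were 0, 1 and 0 at 2M, 0 in the 3 mice of 4M, and 0, 1 and 0 at 6M. In NOD.H-2b they were 23, 22 and 15 at 2M, 73, 38 and 23 at 4M, and 66, 20 and 51 at 6M. The strains again did not overlap, although the level in NOD.H-2b was low and spread widely between mice of 1 age. At 4M the level in NOD.H-2b was at least 13.4-fold that in BALB/c, and the ratio of counts was 52 at 2M (8.98 to 2090), 131 at 6M (23.2 to 5230) and 153 over all ages (41.9 to 1270). With a requirement of more than 30 counts in each NOD.H-2b mouse 1 member is left, Zfp990. With up to 10 counts allowed in BALB/c there are 4, with Zfp940 and Zfp966 added, and with exactly 0 counts required in BALB/c there are 0.

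The strains were then compared over all members by edgeR's quasi-likelihood test on each age's 6 mice. Genes that changed 2-fold or more with an adjusted p under 0.05 were taken as differentially expressed genes (DEGs), and higher or lower refers to NOD.H-2b. At 2M, 9 of the 45 members tested were higher (20%, against 12% of all 17200 genes tested) and 2 were lower (4.44%, against 3.76%). At 4M, 7 of 45 were higher (15.6%, against 15.6% of all genes) and 3 were lower (6.67%, against 4.72%). At 6M, 11 of 46 were higher (23.9%, against 18.8%) and 2 were lower (4.35%, against 6.03%). Higher calls outnumbered lower ones among members as among all genes. The shares turned on which symbols count as members. Of the 40 members with the symbol in the deposited table, a set looked at after the data were seen, 6.67%, 3.33% and 13.3% of those tested were higher at 2M, 4M and 6M. Of the 24 found through GENCODE alone, which hold Zfp990 and Zfp985, the shares were 46.7%, 40% and 43.8%. The shares called lower were 0%, 3.33% and 3.33% of the former set and 13.3%, 13.3% and 6.25% of the latter. The median log2 fold change of the tested members was 0.14, 0.15 and 0.17 at the 3 ages, against 0.01, 0 and 0 over all genes, and these medians stayed the same with the members silent in BALB/c set at their bound. The 95% interval of the difference lay within 2-fold either way for 29 of the 45 members at 2M, 29 of 45 at 4M and 28 of 46 at 6M.

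In 1 fit of all 18 mice, the strain difference averaged over ages called 11 of 48 tested members higher (22.9%, against 17.6% of 19117 genes) and 2 lower (4.17%, against 5.19%), with a median of 0.15 against -0.02 over all genes. The 11 were Zfp940, Zfp960, Zfp966, Zfp969, Zfp970, Zfp979, Zfp981, Zfp982, Zfp985, Zfp990 and Zfp992, and the 2 were Zfp984 and Zfp991. Of the 11, Zfp940, Zfp966, Zfp969, Zfp981, Zfp982, Zfp985 and Zfp990 passed the filter on low counts through NOD.H-2b alone. The 334 other numbered Zfp genes of the table, of which 309 were tested, gave 26 higher (8.41%) and 6 lower (1.94%). Without any fit, the CPM of all 9 NOD.H-2b mice lay above that of all 9 BALB/c mice for 9 of the 48 members tested (11.2% of all genes tested did so) and below for 2 members, Zfp930 and Zfp984 (9.75% of all genes). At all 3 ages 7 members were called higher, namely Zfp940, Zfp966, Zfp970, Zfp979, Zfp985, Zfp990 and Zfp992, and 1 was called lower, Zfp991, out of 45 tested at all ages, against 1577 and 400 of all 16703 such genes. By DESeq2 Zfp966 was not called at 2M and Zfp991 not at 4M. The lower calls were few and 1 library could decide them. Without NOD.H-2b 4M replicate 2 the number at 4M was 1, and without BALB/c 2M replicate 2 or NOD.H-2b 2M replicate 3 the number at 2M was 1. At 6M it was 0 without BALB/c 6M replicate 1, BALB/c 6M replicate 2, NOD.H-2b 6M replicate 1 or NOD.H-2b 6M replicate 3, and 1 without NOD.H-2b 6M replicate 2.

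**Figure D1:**
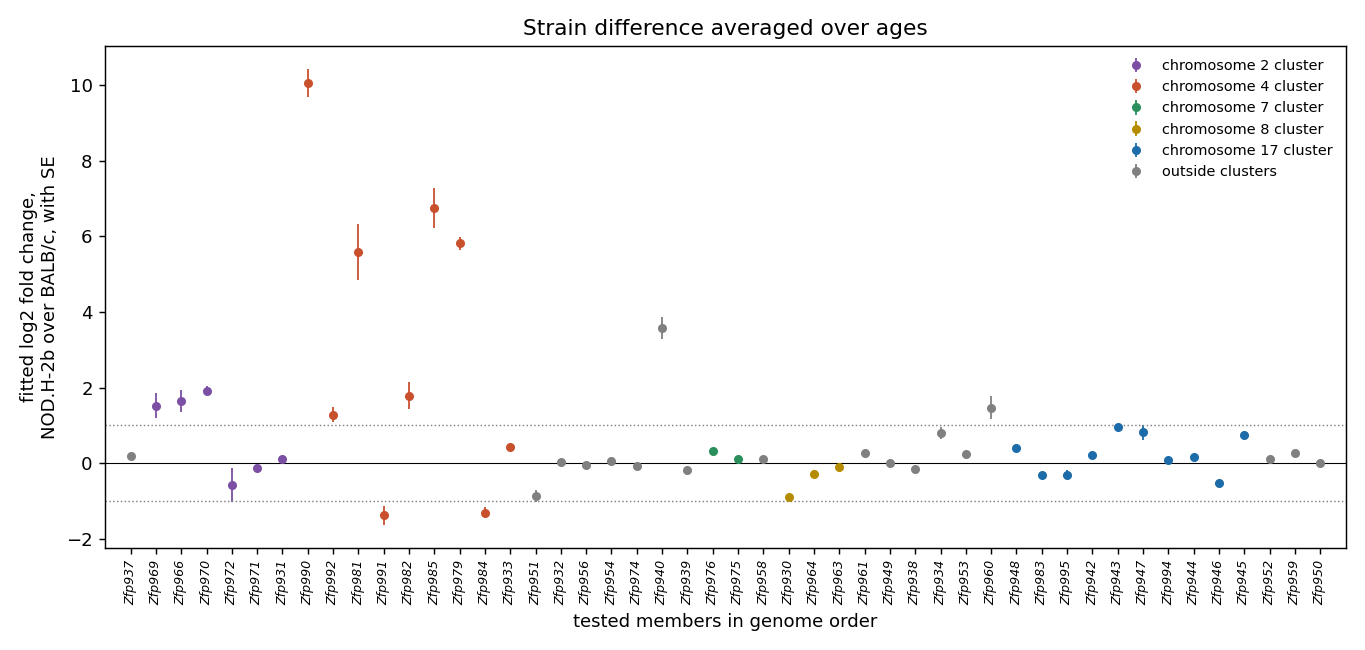
Fitted log2 fold change of NOD.H-2b over BALB/c averaged over ages (y axis) for the 48 tested members in genome order (x axis), with points as estimates, bars as standard errors, dotted lines at a 2-fold change and colors for the genomic clusters. The members called higher lie mostly in the clusters of chromosomes 4 and 2, and the sizes fitted for Zfp990, Zfp985 and Zfp981 have BALB/c near 0 counts and are no measure of a fold.

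The calls were also counted by place in the genome. A genomic cluster was taken as 3 or more members on 1 chromosome with at most 1 Mb between neighbours in GRCm38, and there were 5 of these. The cluster at chr4:145510759-147848366 spans 2.34 Mb, holds 16 members including both strain-restricted ones, and had 6 of its 9 tested members called higher (66.7%, against 17.6% of all genes) and 2 called lower (22.2%, against 5.19%) over the averaged ages. Of these 6, Zfp990, Zfp985, Zfp981 and Zfp982 passed the filter on low counts through NOD.H-2b alone. They could be tested only because they were higher there, and the other 7 members of the cluster were not tested. Its median log2 fold change was 1.79, also with the silent members at their bound. The chromosome 2 cluster (chr2:175372436-178078476, 10 members) had 3 of 6 tested members called higher and a median of 0.82. Of these 3, Zfp966 and Zfp969 also passed the filter on low counts through NOD.H-2b alone. The clusters of chromosome 17 (chr17:21567008-22867134, 10 members), chromosome 7 (chr7:42579783-43192109, 4 members) and chromosome 8 (chr8:69209038-69749970, 3 members) had 0 members called among the 10, 2 and 3 tested by edgeR and 0 by DESeq2 over the averaged ages, with 9, 1 and 2 at an unadjusted p under 0.05. In the chromosome 17 cluster 1 member was called higher at 2M (Zfp947) and 1 at 6M (Zfp943). Outside the chromosome 4 cluster, 5 of 39 members were higher (12.8%), with a median of 0.12. Members that share a cluster also share sequence, so they are not independent of each other, and the difference between clusters was not tested.

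Within the chromosome 4 cluster, the neighbours of Zfp990 and Zfp985 went in several directions. Zfp979 (chr4:147611937-147642513, minus strand), the next member after Zfp985, had BALB/c counts of 24, 12 and 34 at 2M, 5, 9 and 11 at 4M, and 20, 11 and 2 at 6M. In NOD.H-2b it had 1023, 843 and 754 at 2M, 669, 763 and 484 at 4M, and 995, 934 and 701 at 6M. It was therefore low in BALB/c, with 2 counts, under the floor, in BALB/c 6M replicate 3 and part of its windows shared with other genes, and each NOD.H-2b mouse lay more than 10 times above each of them in counts. The log2 fold change was 5.06 (SE 0.27) at 2M, 6.15 (SE 0.225) at 4M and 6.31 (SE 0.301) at 6M, with adjusted p of 3.57e-06, 1.2e-07 and 5.28e-07. At 4M and 6M Zfp979 passed the filter on low counts through its NOD.H-2b mice alone, so the p values of those ages are no evidence beyond the counts. Among members tested at all 3 ages with at least 1 count in every mouse, Zfp979 thus had the largest fitted difference.

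Zfp984 (chr4:147753974-147809788, minus strand) went the other way. Its BALB/c counts were 170, 133 and 141 at 2M, 146, 140 and 201 at 4M, and 256, 118 and 102 at 6M, and those of NOD.H-2b were 30, 38 and 41 at 2M, 116, 59 and 58 at 4M, and 167, 63 and 109 at 6M. In CPM the strains did not overlap at any age, but they came closer with age. The log2 fold change was -2.19 (SE 0.229, adjusted p = 2.04e-05) at 2M, -1.15 (SE 0.254, adjusted p = 0.00485) at 4M and -0.52 (SE 0.246, adjusted p = 0.0984) at 6M, so that the last was not called, and the call at 4M was lost without NOD.H-2b 4M replicate 2. The exons of Zfp984 overlap those of the lincRNA Gm20707, which was higher in NOD.H-2b over the averaged ages (1.33, SE 0.25, adjusted p = 0.000117), and 35.9% of its windows are shared with Gm13212, so its values are uncertain. Zfp991 (chr4:147132038-147180579, plus strand) was also lower, by -1.31 (SE 0.396) at 2M, -1.34 (SE 0.379) at 4M and -1.41 (SE 0.502) at 6M, with adjusted p of 0.021, 0.017 and 0.036. Its lowest, median and highest counts were 11, 25 and 78 in BALB/c and 6, 10 and 20 in NOD.H-2b, so the strains overlapped in counts. At 4M and 6M its NOD.H-2b mice alone would not have passed the filter on low counts, as not all of them reached it. Its call at 2M was lost without BALB/c 2M replicate 1 or 2 or NOD.H-2b 2M replicate 1 or 3, that at 4M in DESeq2, with at least 10 counts required in every mouse and without BALB/c 4M replicate 1 or 2 or NOD.H-2b 4M replicate 2, and that at 6M with the same requirement and without BALB/c 6M replicate 1 or 2 or NOD.H-2b 6M replicate 1 or 3. Zfp991 also shares 60.8% of its windows with the pseudogene Znf41-ps.

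Zfp992 (chr4:146449023-146470292, plus strand) had between 12 and 29 counts in the BALB/c mice and between 30 and 69 in the NOD.H-2b mice, with medians of 18 and 57, and was higher by 1.57 (SE 0.333), 1.22 (SE 0.362) and 1.15 (SE 0.36) at 2M, 4M and 6M on the log2 scale, with adjusted p of 0.00291, 0.0214 and 0.0214. Its counts did not overlap between strains. At 6M its BALB/c mice alone would not have passed the filter on low counts, as not all of them reached it. Its call at 4M was lost without BALB/c 4M replicate 1, BALB/c 4M replicate 2, NOD.H-2b 4M replicate 1 or NOD.H-2b 4M replicate 2, and that at 6M without BALB/c 6M replicate 1, NOD.H-2b 6M replicate 1 or NOD.H-2b 6M replicate 3. Zfp982 (chr4:147492417-147513486, plus strand) had 7, 2 and 1 counts in BALB/c at 2M, 10, 9 and 7 at 4M, and 15, 9 and 7 at 6M, against 53, 29 and 19, then 7, 22 and 22, then 28, 39 and 17 in NOD.H-2b. It was called at 2M (3.13, SE 0.658, adjusted p = 0.0029) and at 6M (1.41, SE 0.437, adjusted p = 0.02), but 1 NOD.H-2b mouse of 4M fell within the BALB/c range and the call at 6M was lost without BALB/c 6M replicate 1 or NOD.H-2b 6M replicate 2. At 2M, at 6M and over the averaged ages Zfp982 passed the filter on low counts through its NOD.H-2b mice alone. Zfp981 (chr4:146502027-146539395, plus strand) had 1 count in all BALB/c mice together and 86 in NOD.H-2b, a ratio of 79.3 (13.9 to 3170), with single NOD.H-2b mice between 2 and 18 counts.

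Zfp933 (chr4:147822986-147848366, minus strand) closes the cluster and differs least between the strains among its well-counted members. Its level was 9.02 ± 0.783, 7.22 ± 0.163 and 9.04 ± 0.968 CPM in BALB/c at the 3 ages and 11.5 ± 0.266, 10.2 ± 1.05 and 12.4 ± 0.481 CPM in NOD.H-2b (mean ± SD, n = 3), with the strains apart at each age but overlapping over all ages together. The log2 difference was 0.39 (SE 0.0873), 0.5 (SE 0.115) and 0.49 (SE 0.104), with adjusted p of 0.00412, 0.00578 and 0.00266, under the 2-fold limit each time. With 99.9% of its windows found in no other gene, it is the member of the cluster whose counts are least open to exchange with copies. The remaining members were near the floor. Zfp980, Zfp986, Zfp987, Zfp988 and Zfp989 had 0 counts in all BALB/c mice and at most 7, 2, 1, 5 and 5 in any NOD.H-2b mouse, Zfp978 had at most 2 in BALB/c and between 1 and 10 in NOD.H-2b, and Zfp993 had up to 13 in BALB/c and up to 7 in NOD.H-2b. Of these, Zfp980 (0 against 15 counts at 2M) had a bound of at least 1.46-fold, and Zfp978 over all ages had a ratio of 11.1 (3.5 to 56.2).

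**Figure D2:**
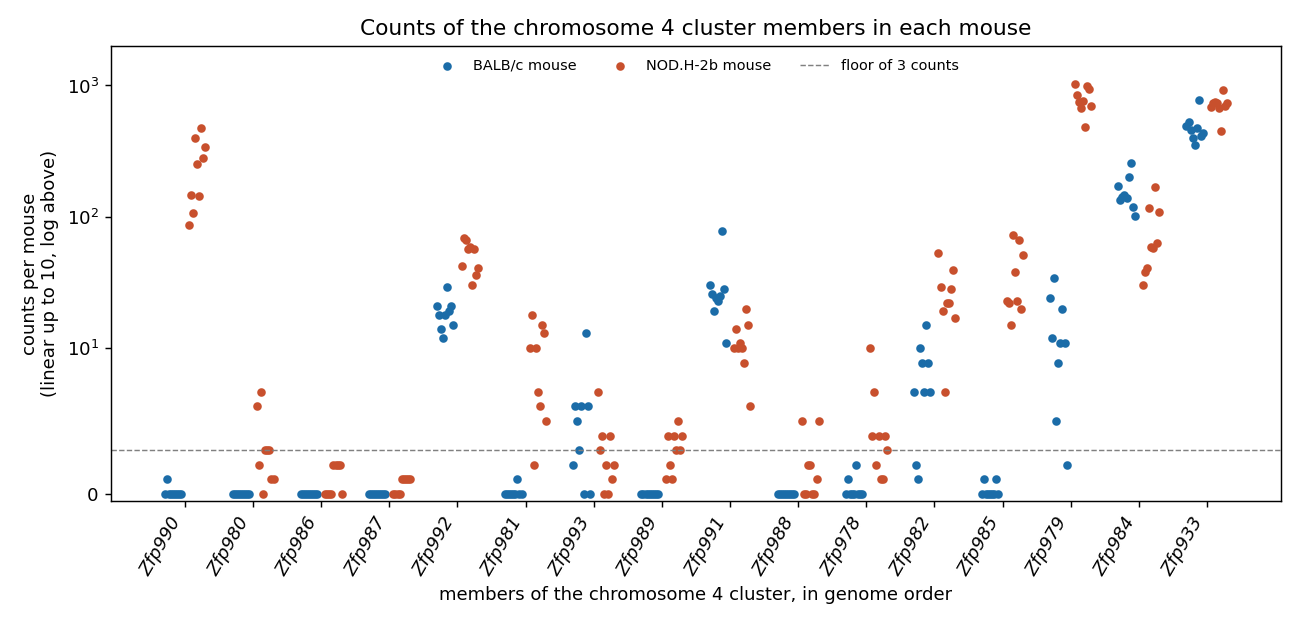
Counts per mouse (y axis, linear up to 10 and logarithmic above) of the 16 members of the chromosome 4 cluster in genome order (x axis), with 1 point per mouse, blue for BALB/c, orange for NOD.H-2b and a dashed line at the floor of 3 counts. Zfp990 and Zfp985 lie at 0 or 1 count in BALB/c and at 15 counts or more in NOD.H-2b, while Zfp984 and Zfp991 lie lower in NOD.H-2b and Zfp933 is well counted in both strains.

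The cluster also holds 72 annotated genes that are not members, of which 7 were tested over the averaged ages. In NOD.H-2b 6 were higher (85.7%, against 17.6% of all genes) and 1 was lower (14.3%, against 5.19%). Of the 6, Gm13212, Gm13166 and Gm20760 had at most 7, 7 and 2 counts in any BALB/c mouse, and Gm26624 at most 9. Gm13212, Gm13166, Gm20760 and Gm26624 thus passed the filter on low counts through NOD.H-2b alone, and could be tested only because they were higher there. The protein-coding gene Gm13212, which lies near Zfp990 at chr4:145585166-145625345, had 1 to 7 counts in BALB/c mice and 101 to 353 in NOD.H-2b mice, a log2 difference of 5.84 (SE 0.211, adjusted p = 3.55e-14). The others called higher were Gm13166 (2.94, SE 0.309), Gm20760 (2.54, SE 0.538), Gm26624 (2.39, SE 0.312), Rps19-ps3 (1.56, SE 0.179) and Gm20707, and Znf41-ps was lower (-1.76, SE 0.218, adjusted p = 8.47e-07). Zfp534, Gm21411 and Rex2 were not tested, and had 0 counts in each BALB/c mouse against 3 to 17, 1 to 14 and 1 to 9 in NOD.H-2b mice. Among members and other genes alike, genes near-silent in BALB/c thus lay on either side of genes counted in both strains.

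Because neighbouring members moved together or apart, their promoters were set side by side from RefSeq (GRCm38.p6), which had an entry for 54 of the 64 members and for 10 of the 16 in the cluster. In 8 of those the entry starts within 100 bases of the GENCODE start, and the 250 bases before the start were searched on both strands. Zfp986, Zfp989, Zfp990, Zfp991, Zfp992 and Zfp978 had no entry. Shown are the bases 170 to 21 before the start, 5′ to 3′ along the gene, for the strain-restricted Zfp985 (chr4:147553107-147553256, plus strand), for Zfp979 (chr4:147642529-147642678, minus strand) and Zfp982 (chr4:147492247-147492396, plus strand), both higher in NOD.H-2b, for Zfp984 (chr4:147809809-147809958, minus strand), lower in NOD.H-2b, for Zfp980 (chr4:145670527-145670676, plus strand), near the floor, and for Zfp933 (chr4:147848439-147848588, minus strand), well counted in both strains. Capitals mark the longest stretch shared by all the entries but that of Zfp933, which was set aside once its promoter was seen to read differently.
Zfp985: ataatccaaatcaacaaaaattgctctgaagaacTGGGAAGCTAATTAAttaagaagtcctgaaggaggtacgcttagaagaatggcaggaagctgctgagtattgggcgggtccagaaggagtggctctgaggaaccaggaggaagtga
Zfp979: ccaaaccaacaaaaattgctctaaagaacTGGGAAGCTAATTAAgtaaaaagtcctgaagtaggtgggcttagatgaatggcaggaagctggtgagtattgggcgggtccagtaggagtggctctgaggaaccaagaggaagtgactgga
Zfp982: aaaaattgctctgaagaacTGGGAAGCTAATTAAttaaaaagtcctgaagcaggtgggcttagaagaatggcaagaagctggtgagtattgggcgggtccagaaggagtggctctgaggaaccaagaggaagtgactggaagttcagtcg
Zfp984: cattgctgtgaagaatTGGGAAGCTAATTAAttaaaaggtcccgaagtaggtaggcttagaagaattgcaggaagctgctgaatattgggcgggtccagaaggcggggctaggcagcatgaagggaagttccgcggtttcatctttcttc
Zfp980: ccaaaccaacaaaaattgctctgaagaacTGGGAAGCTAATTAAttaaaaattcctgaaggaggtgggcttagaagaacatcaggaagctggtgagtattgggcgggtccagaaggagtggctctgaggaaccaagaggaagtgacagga
Zfp933: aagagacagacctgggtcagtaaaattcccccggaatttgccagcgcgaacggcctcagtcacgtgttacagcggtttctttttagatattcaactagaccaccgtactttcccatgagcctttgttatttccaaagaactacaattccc

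The marked 15 bases, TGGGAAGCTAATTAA, were present in 7 of the 8 promoters by the way they were chosen, and in 12 of all 32851 promoters of the table (0.0365%). All 12 belong to genes inside the chromosome 4 cluster, among 19 symbols with a start there, namely Gm13212, Rex2, Zfp534, Zfp600, Zfp979, Zfp980, Zfp981, Zfp982, Zfp984, Zfp985, Zfp987 and Zfp988. Of these, Zfp979, Zfp981, Zfp982, Zfp985 and Gm13212 were called higher in NOD.H-2b over the averaged ages, and Zfp984, whose values are uncertain, was called lower. The other 6 were not tested, and Zfp534, Rex2, Zfp600, Zfp980, Zfp987 and Zfp988 each had 0 counts in all BALB/c mice and some counts in NOD.H-2b. Of the genes called higher, Zfp981, Zfp982, Zfp985 and Gm13212 passed the filter on low counts through NOD.H-2b alone, and could be tested only because they were higher there. The 5 bases CCAAT were found in 7 of the 8 promoters and in 33.8% of all promoters, and the 6 bases GGGCGG in 6 of the 8 and in 32.7%. Over the 250 bases, the promoter of Zfp985 was 82.7% identical to that of Zfp979, 84.2% to that of Zfp987 and 70.1% to that of Zfp984, while that of Zfp933 was between 46% and 50.9% identical to the others. All of these are sequences of the C57BL/6J reference and not of the strains measured.

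Outside the chromosome 4 cluster, Zfp940 (chr7:29833620-29853669, minus strand) differed most. Its counts in BALB/c were 3, 2 and 6 at 2M, 2, 5 and 1 at 4M, and 3, 2 and 2 at 6M, and in NOD.H-2b 21, 29 and 12 at 2M, 37, 50 and 37 at 4M, and 80, 73 and 43 at 6M. The strains did not overlap at any age, and the counts of BALB/c were near the floor. The log2 fold change was 2.29 (SE 0.565), 3.8 (SE 0.552) and 4.69 (SE 0.445) at 2M, 4M and 6M, with adjusted p of 0.00706, 0.000449 and 1.54e-05. Zfp940 passed the filter on low counts through its NOD.H-2b mice alone, so these p values are no evidence beyond the counts. The reads of Zfp940 are hardly shared, with 99.3% of its windows found in no other gene.

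Zfp970, on chromosome 2 (chr2:177464733-177478129, plus strand), had the highest level per kb in the mean over all mice of both strains. It had 219, 158 and 156 counts in BALB/c at 2M, 146, 113 and 231 at 4M, and 350, 240 and 218 at 6M, and in NOD.H-2b 936, 912 and 825 at 2M, 798, 687 and 693 at 4M, and 861, 989 and 674 at 6M. Every NOD.H-2b mouse was above every BALB/c mouse, and the log2 fold change was 2.16 (SE 0.152), 2.11 (SE 0.172) and 1.58 (SE 0.197), with adjusted p of 3.09e-06, 1.52e-05 and 0.00015. Its neighbours Zfp966 and Zfp969, named after their values were seen, had much lower counts, 3 to 8 against 13 to 28 for Zfp966 and 2 to 5 against 7 to 19 for Zfp969. The calls for Zfp966 were lost at each age with at least 10 counts required in every mouse. The call at 2M was also lost in DESeq2, without the filter on low counts and without any single one of 5 of the 6 mice (all but BALB/c 2M replicate 1), at 4M without BALB/c or NOD.H-2b 4M replicate 3, and at 6M without NOD.H-2b 6M replicate 2 or any 1 BALB/c mouse. Both were called over the averaged ages with 1.64 (SE 0.289, adjusted p = 5.56e-05) and 1.52 (SE 0.335, adjusted p = 0.000543). They passed the filter on low counts through NOD.H-2b alone, and could be tested only because they were higher there. Only 14.9% of the windows of Zfp966 and 0% of those of Zfp969 are found in no other gene, so both are uncertain. Zfp971 and Zfp931, further members of this cluster named after their values were seen, stood at 5.53 to 8.75 and 3.68 to 5.27 CPM in BALB/c and at 5.35 to 6.87 and 3.84 to 5.83 CPM in NOD.H-2b, with overlapping ranges at each age.

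Other members among the 5 highest per kb were called at no age. Zfp946 lay between 13.9 and 17.7 CPM in the BALB/c mice and between 9.02 and 14.2 CPM in the NOD.H-2b mice, with medians of 15 and 10.8 CPM and a log2 difference of -0.51 (SE 0.0606, adjusted p = 4.92e-07) over the averaged ages. Zfp950 had 32.3 to 44.8 CPM in BALB/c and 35.6 to 44.1 CPM in NOD.H-2b, Zfp958 had 5.5 to 9.14 and 7.43 to 8.66 CPM, and Zfp938 had 5.51 to 9.57 and 5.49 to 7.71 CPM. The ranges of these last 3 overlapped over all ages together, but not at every age. At 2M Zfp938 lay between 8.1 and 9.57 CPM in BALB/c and between 6.27 and 7.71 CPM in NOD.H-2b (log2 difference -0.28, SE 0.104, adjusted p = 0.048). At 4M the NOD.H-2b mice lay above the BALB/c mice for Zfp958 (0.18, SE 0.107, adjusted p = 0.21) and for Zfp950 (0.11, SE 0.0707, adjusted p = 0.226), neither past the test. Among members named after their values were seen, Zfp930 was lower in NOD.H-2b in all mice (8.33 to 13.3 against 4.99 to 6.75 CPM, log2 difference -0.89, SE 0.0634, adjusted p = 5.35e-10), short of 2-fold. It passed that limit at 2M in the fit of all 18 mice and without BALB/c 2M replicate 1 or NOD.H-2b 2M replicate 1. Zfp943, on chromosome 17, was higher in all mice (6.5 to 9.75 against 13.8 to 20 CPM, 0.95, SE 0.0655, adjusted p = 3.5e-10) and passed the 2-fold limit at 6M, a call that was lost with upper quartile normalization, in the fit of all 18 mice and without BALB/c 6M replicate 2 or NOD.H-2b 6M replicate 2. It also passed the limit at 2M without NOD.H-2b 2M replicate 3, at 4M without BALB/c 4M replicate 1 or NOD.H-2b 4M replicate 3, and over the averaged ages with at least 10 counts required in every mouse or without BALB/c 4M replicate 1, so it lay at the limit throughout. Zfp945 of the same cluster differed by 0.76 (SE 0.0983, adjusted p = 1.31e-06).

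A few members, also named after their values were seen, were called at 1 or 2 ages. Zfp960 was higher at 6M (2.1, SE 0.453, adjusted p = 0.00308), but 74.7% of its windows are shared with Zfp97 and 24.7% are found in no other gene, so it is uncertain. At 6M it passed the filter on low counts through its NOD.H-2b mice alone, so this p value is no evidence beyond the counts. Also higher were Zfp934 at 6M (1.1, SE 0.276, adjusted p = 0.00693, lost without BALB/c or NOD.H-2b 6M replicate 3) and Zfp947 at 2M (1.26, SE 0.249, adjusted p = 0.00191). Zfp951 was lower at 4M (-1.12, SE 0.191, adjusted p = 0.00111) and at 6M (-1.05, SE 0.36, adjusted p = 0.0349). The latter call was lost without the filter on low counts, with the replicate number as a block and without any single one of 5 of the 6 mice (all but BALB/c 6M replicate 3). That these members were called at some ages and not at others is not a difference between ages, which was tested separately.

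Change with age was asked within each strain and then between the strains. From 2M to 6M in BALB/c, 0 of 41 tested members rose and 0 fell by edgeR's quasi-likelihood test, against 1.57% and 0.115% of all 16579 genes, with 7 members at an unadjusted p under 0.05 and 0 called by DESeq2. From 2M to 6M in NOD.H-2b, 4 of 47 rose (8.51%, against 10.9% of all 18008 genes) and 0 fell (against 1.55%), with 11 at an unadjusted p under 0.05 in either direction and 0 falling by DESeq2. The share that rose was close to that of all genes. The 95% interval of the change lay within 2-fold for 35 of the 41 members in BALB/c and 36 of the 47 in NOD.H-2b.

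The 4 that rose in NOD.H-2b were Zfp990, Zfp985, Zfp984 and Zfp940, and 3 of them lie in the chromosome 4 cluster. Zfp990 rose by 1.65 (SE 0.191, adjusted p = 0.000759), with all 3 mice of 6M above the 3 of 2M in CPM. B cell markers in the same mice were also higher at 6M, with sums of 0.739, 20.2 and 8.16 CPM at 2M and 314, 162 and 209 CPM at 6M, and their part in the rise was not tested. Zfp984 rose by 1.58 (SE 0.293, adjusted p = 0.00383) and Zfp940 by 1.64 (SE 0.363, adjusted p = 0.00793). Zfp985 rose by 1.13 (SE 0.405, adjusted p = 0.0499), a call at the limit that was lost with upper quartile normalization, in DESeq2, in the fit of all 18 mice and without any single mouse except NOD.H-2b 6M replicate 2, with a CPM of 0.316 ± 0.0729 at 2M and 0.702 ± 0.305 at 6M (SD, n = 3). Zfp979 had 13.8 ± 2.62 CPM at 2M and 13.9 ± 2.17 CPM at 6M in NOD.H-2b, and was not called for age there.

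Whether the strain difference itself changed from 2M to 6M was tested in the fit of all 18 mice. It shifted toward NOD.H-2b for 2 of 48 members (4.17%, against 3.6% of 19117 genes), Zfp984, whose difference narrowed, and Zfp940, whose difference widened. It shifted toward BALB/c for 0 by edgeR (against 1.5%) and 0 by DESeq2, with 6 members at an unadjusted p under 0.05 in either direction. For Zfp984 the change was 1.68 (SE 0.355, adjusted p = 0.00567). Its BALB/c level was flat at 2.71 ± 0.471 and 2.55 ± 0.184 CPM at 2M and 6M, while its NOD.H-2b level went from 0.572 ± 0.076 to 1.73 ± 0.562 CPM (SD, n = 3). Zfp940 passed the filter on low counts through NOD.H-2b alone, and its BALB/c counts were near the floor. Its change was 2.4 (SE 0.803, adjusted p = 0.0486), at the limit. Its call was lost with upper quartile normalization, without the filter on low counts, with at least 10 counts required in every mouse and in 12 of the 18 fits that leave out 1 mouse, where Zfp984 was the only member called toward NOD.H-2b. These were the fits without BALB/c 2M replicate 1 or 3, NOD.H-2b 2M replicate 1 or 3, BALB/c 4M replicate 1, NOD.H-2b 4M replicate 2 or 3, BALB/c 6M replicate 1, 2 or 3, and NOD.H-2b 6M replicate 1 or 2. Without BALB/c 6M replicate 3, Zfp951 was also called, toward BALB/c. DESeq2 called 3 members, with Zfp979 added (1.25, SE 0.46, adjusted p = 0.0726 by edgeR). For Zfp990 the fitted change rests on a single BALB/c count and was not called (adjusted p = 0.258), so that a different change with age in the strains was not shown for it. Zfp961, named after its values were seen, had a change of 0.71 (SE 0.153, adjusted p = 0.00611), and Zfp946 one of -0.46 (SE 0.148, adjusted p = 0.0407), both under 2-fold.

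**Figure D3:**
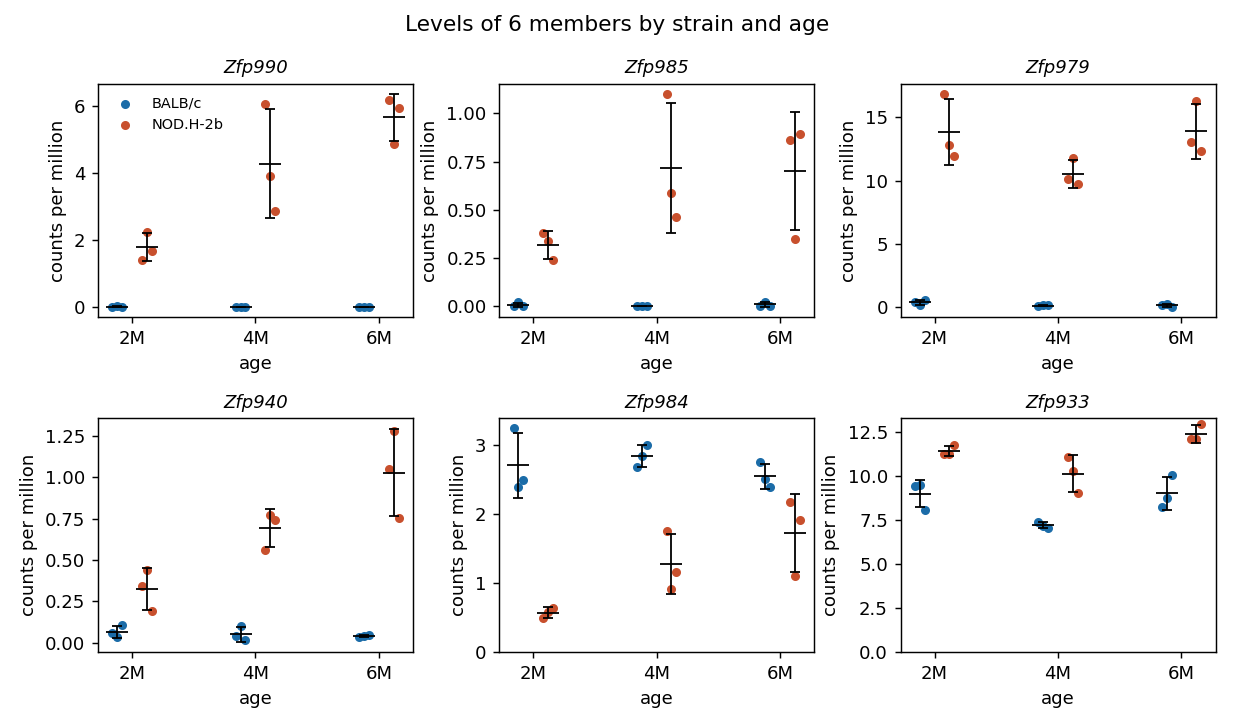
Level in CPM (y axis, from 0) at 2M, 4M and 6M (x axis) of 6 members, with 1 point per mouse, blue for BALB/c and orange for NOD.H-2b, and horizontal lines with bars for the mean and SD of 3 mice. Zfp990 went from 1.78 to 5.66 CPM in NOD.H-2b, Zfp979 had means of 13.8 and 13.9 CPM at 2M and 6M, and Zfp984 rose from 0.572 to 1.73 CPM toward the level of BALB/c.

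The partners through which KRAB zinc finger proteins act were described from a fixed list of 40 genes, of which 38 were tested. Over the averaged ages 2 were higher (5.26%, against 17.6% of all genes) and 1 was lower (2.63%, against 5.19%). With the adjusted p alone 15 were higher and 14 were lower, most of them under 2-fold, and that share was not taken over all genes. Trim28, the co-repressor bound by the KRAB domain, lay between 30.6 and 37.9 CPM in the BALB/c mice and between 31.3 and 38.7 CPM in the NOD.H-2b mice, and its log2 difference was 0.02 (SE 0.0413, adjusted p = 0.703) over the averaged ages and 0.25 (SE 0.0725, adjusted p = 0.014) at 6M. Setdb1, the histone methyltransferase recruited by Trim28, was the lower one, between 58.5 and 69 CPM in BALB/c and between 23.8 and 31.1 CPM in NOD.H-2b. All 9 NOD.H-2b mice were far below all 9 BALB/c mice, and the log2 difference was -1.2 (SE 0.0632) at 2M, -1.06 (SE 0.0733) at 4M and -1.32 (SE 0.0792) at 6M, with adjusted p of 8.54e-08, 6.74e-06 and 8.78e-07. The call for Setdb1 thus held at each age, with no change between 2M and 6M past the test (-0.11, SE 0.0979, adjusted p = 0.473).

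The 2 higher genes of the list were Suv39h1 (1.4, SE 0.115, adjusted p = 3.59e-09) and Setdb2 (1.07, SE 0.0917, adjusted p = 5.79e-09), which are also histone methyltransferases. At 2M 1 of the 38 was higher (2.63%, against 12% of all genes), at 4M 4 of 38 were (against 15.6%) and at 6M 4 of 38 (against 18.8%). Among those of 4M and 6M were the maintenance DNA methyltransferase Dnmt1 (1.1, SE 0.122 at 4M and 1.19, SE 0.0963 at 6M) and the chromatin assembly subunit Chaf1a (1.29, SE 0.357 and 1.01, SE 0.209). For strain by age, which tests a signed shift of the log2 difference from 2M to 6M, every gene of the list with an adjusted p under 0.05 stayed under 2-fold. Such a shift does not say whether a difference grew or shrank. Of these genes 7 shifted toward NOD.H-2b, among them Setdb2 (0.79, SE 0.223, adjusted p = 0.0238), Dnmt1 (0.69, SE 0.154, adjusted p = 0.00732), Trim28 (0.34, SE 0.101, adjusted p = 0.0288), Mta2 (0.37, SE 0.108) and Chd4 (0.32, SE 0.0989). The 1 that shifted toward BALB/c was Chd3, a NuRD subunit (-0.47, SE 0.123, adjusted p = 0.0161). The difference of Chd3 went from -0.19 at 2M to -0.67 at 6M. The heterochromatin proteins were split, with Cbx5 higher (0.56, SE 0.041, adjusted p = 7.76e-10) and Cbx3 lower (-0.32, SE 0.0473, adjusted p = 7.97e-06), both under 2-fold.

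Markers of infiltrating cells moved with strain and age beside these results. The 5 B cell markers, of which Pax5 was the most abundant with a mean of 16.1 CPM, summed in BALB/c to 0.0573, 0.269 and 0.0353 CPM at 2M, 0.756, 0.813 and 1.69 at 4M, and 0.655, 1.49 and 0.748 at 6M, near 0 in all 9 mice. In NOD.H-2b they summed to 0.739, 20.2 and 8.16 CPM at 2M, 224, 114 and 99.6 at 4M, and 314, 162 and 209 at 6M, with 2, 5 and 5 of the 5 called higher at the 3 ages. The 5 T cell markers, led by Cd4 with 9.76 CPM, summed in BALB/c to 0.516, 0.305 and 0.123 CPM at 2M, 0.94, 0.508 and 3.8 at 4M, and 1.11, 1.64 and 1.22 at 6M. In NOD.H-2b their sums were 6.21, 21.6 and 13.5 CPM at 2M, 79.6, 44.9 and 43.4 at 4M, and 71.1, 50.5 and 66.3 at 6M, with all 5 called higher at each age. Both sums were higher in each NOD.H-2b mouse of 4M and 6M than in those of 2M. The order of the 9 NOD.H-2b mice by the CPM of Zfp990 was their order by the B cell sum, from NOD.H-2b 2M replicate 1 (1.41 CPM of Zfp990, B cell sum 0.739 CPM) to NOD.H-2b 6M replicate 1 (6.17 and 314 CPM), and both also went with age. This order was noticed after the values were seen, and no correlation was computed. The part of these cells in the results on the members was not tested. In whole glands, fewer cells of a type and less RNA per cell cannot be told apart.

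The 4 plasma cell markers, led by Jchain with 273 CPM, summed in BALB/c to 30.7, 35.6 and 37.7 CPM at 2M, 193, 154 and 260 at 4M, and 174, 307 and 178 at 6M. Their NOD.H-2b sums were 89.6, 186 and 144 CPM, then 515, 737 and 527, then 674, 696 and 563, with 1, 3 and 2 called higher at 2M, 4M and 6M. The 5 macrophage markers, led by Csf1r with 25.4 CPM, summed in BALB/c to 35.6, 35.7 and 26.3 CPM at 2M, 40.8, 41.6 and 64.9 at 4M, and 36.2, 44.6 and 37 at 6M. In NOD.H-2b they reached 98.4, 108 and 113 CPM, then 147, 132 and 138, then 181, 140 and 130, with 5, 4 and 5 called higher, so that macrophage markers differed already at 2M. The 5 ductal markers (led by Ltf) summed to between 835 and 1340 CPM over all mice, with 2 called higher at 2M and 1 at 6M. The 5 epithelial markers (led by Krt8) had mean sums of 679, 771 and 722 CPM in BALB/c at 2M, 4M and 6M and of 848, 658 and 540 CPM in NOD.H-2b, which lay above BALB/c in every mouse at 2M and below in every mouse at 6M. The 8 acinar markers had 1, 2 and 2 called higher and, at 6M, 2 called lower. Their sum was lower in every NOD.H-2b mouse than in every BALB/c mouse at 2M (118000, 129000 and 121000 against 142000, 142000 and 152000 CPM) and at 6M (93500, 110000 and 112000 against 126000, 123000 and 136000 CPM). Tissue from around the gland was little represented, with sums of at most 1.5 CPM for 4 skeletal muscle markers, 4.76 CPM for 4 adipocyte markers and 13 CPM for 4 salivary gland markers, and 4 erythroid markers, led by Hbb-bs, lay between 25.3 and 86.1 CPM. These sums give the makeup of the samples, and their part in the results was not tested either.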

How the data were processed

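Total RNA of 18 LGs was sequenced as paired reads. The raw counts, by Ensembl gene, are those the authors deposited. Per the submitters' notes they came from cutadapt, FastQC, STAR with GRCm38, and HTSeq (versions not given in the sources used here). The authors also deposited log2 values normalized with DESeq2, which were not used. Tools here were edgeR 4.0.16, limma 3.58.1 and DESeq2 1.42.0 under R 4.3.3. Counts were normalized with TMM, filtered with filterByExpr and tested with the quasi-likelihood test of edgeR (robust), and p values were adjusted by Benjamini-Hochberg over all genes tested. The standard error of a gene was derived from its fold change (log2) and F. Each age, or each strain for age, was fitted on its 6 mice, and averaged differences and strain by age on all 18. Pairs of replicates differed beyond counting error (chi-square per gene 17.7 to 91.1), so the 3 mice per group, rather than depth, set the precision of well-counted genes. Positions and exon lengths are from GENCODE M21. Marker lists and the KRAB partner list were written by hand. The steps were tested on simulated data. Named members were the strain-restricted ones, up to 5 each way with the largest averaged difference among those called at all 3 ages, the 5 highest per kb, those called for age or strain by age, and all members of a cluster holding a strain-restricted one. Members and lists were chosen with earlier results of these data known. Alternatives were other normalizations, filters, tests and fits, the replicate number as a block, members without overlapping exons, and leaving out each mouse.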

Additional observations from a re-analysis of the deposited data

Results flagged for a closer look

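The strain difference of 2 members was not the same at 2M and at 6M by the test of the change itself. For Zfp984 it moved by 1.68 on the log2 scale toward NOD.H-2b, from -2.19 at 2M to -0.52 at 6M, but its exons overlap Gm20707 and 35.9% of its windows are shared with Gm13212, so its counts are uncertain. Zfp940 had 1 to 6 counts in each BALB/c mouse and passed the filter on low counts through NOD.H-2b alone. Its difference moved by 2.4, from 2.29 at 2M to 4.69 at 6M, with an adjusted p of 0.0486 at the limit. That call was lost with upper quartile normalization, without the filter on low counts, with at least 10 counts in every mouse and in 12 of the 18 fits that leave out 1 mouse.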

How the results depend on the processing

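Counts of members called are given as higher and then lower. With the adjusted p alone they were 14 and 5 at 2M, 13 and 5 at 4M, 18 and 4 at 6M, 22 and 8 over the averaged ages, and 8 and 1 with age in NOD.H-2b, and 1 was lower for strain by age. With at least 10 counts in every mouse, which leaves fewer genes tested and drops low-count members such as Zfp979 at 4M and 6M, 4, 2 and 4 were higher at the 3 ages, 1 was lower at 6M, 3 (with Zfp943 newly called) and 1 were called over the averaged ages and 1 for strain by age. Members without overlapping exons gave 1 lower at 2M, 1 lower over the averaged ages and 1 for strain by age, as Zfp984 is then left out. Members with the symbol in the deposited table, an alternative chosen after seeing the data, gave 2 and 0 at 2M, 1 and 1 at 4M, 4 and 1 at 6M, 2 and 0 over the averaged ages, 1 for strain by age and 1 with age in NOD.H-2b. Strain by age had 1 with upper quartile normalization and 1 without a filter, and without a filter 1 was lower at 6M (Zfp951 lost). The cause of these last 3 was not tested. Strain-restricted members numbered 4 with up to 10 counts allowed in BALB/c, 0 with 0 required and 1 with more than 30 counts required in NOD.H-2b. Leaving out each mouse gave 8 to 10 and 1 to 2 at 2M, 6 to 8 and 1 to 3 at 4M, 8 to 11 and 0 to 2 at 6M, 11 to 12 and 2 to 2 averaged, 1 to 3 and 0 to 1 for strain by age (the lower one, Zfp951, without BALB/c 6M replicate 3), 0 to 0 each way with age in BALB/c, 3 to 4 and 0 to 0 in NOD.H-2b, and 2 and 0 strain-restricted throughout. Replicate numbers did not pair the mice (correlations of -0.0557 to 0.103 over 9 same-number pairs, 1 of them above 0.1, and 3 mice best matched by number), and the replicate block gave 1 lower at 6M (Zfp951 lost), with every other count within 1.5 times. The cause was not tested. Among 353 values of the averaged difference of 15 named members, 347 kept their side of the adjusted p threshold, 6 (Zfp938 and Zfp958) passed it newly, and no called member reversed. A member dropped by a filter has no value there. Calls at single ages, with age and for strain by age are not among these values, and several of them were lost, as given above. The averaged difference of Zfp950, 0, took either sign (-0.02 with upper quartile normalization, 0.05 with at least 10 counts in every mouse). Depth limits the members near 3 counts.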
